A study of Mus musculus with 8 samples.

Results

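Code A1 is the only one of 4 codes of mouse MLL-AF9 leukemic cells whose Sirt1 signal lay below that of the others, and its 2 arrays are described here against the 6 arrays of codes A4, D11 and A5. The code was picked by its Sirt1 value and its genes were chosen from the same differences, so the values that follow are a description with no p-value. A gene was counted as shifted in A1 when the A1 array differed by at least 1 log2 from the mean of the other 3 arrays of the same agent and lay outside their range. Of 18193 genes, 126 were shifted the same way in DMSO and in EPZ4777 (0.693%). In A1, 45 of them were higher (0.247%) and 81 were lower (0.445%).

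SIRT1 is an NAD-dependent deacetylase of histones and of transcription factors such as p53, FOXO proteins and NF-kB. MLL-AF9 joins the start of the histone methyltransferase MLL to AF9, a partner of DOT1L, and such fusions keep HOXA genes and Meis1 active in myeloid precursors. DOT1L methylates histone H3 at a lysine in the body of active genes, and EPZ4777 inhibits it. Cells of this leukemia resemble granulocyte and monocyte precursors and can differentiate toward neutrophils or macrophages when the fusion's program is weakened.

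Total RNA was measured on 8 Affymetrix arrays, 1 for each code and agent, and values are log2 of the deposited RMA intensity throughout. All cells were transformed by MLL-AF9 and grew in medium with 15% serum and the cytokines SCF (at 20 ng/ml), IL-3 (at 10 ng/ml) and IL-6 (at 10 ng/ml). Codes A4 and D11 are labelled shLUC, a control hairpin against luciferase, and codes A1 and A5 are labelled shSirt1, a hairpin against Sirt1. The Sirt1 signal of the code labelled A5 goes against its label, as its values given with those of A1 show. DMSO arrays have no time in the labels. EPZ4777 arrays were taken at 3 µM, after 6 days for A4 and D11 and after 21 days for A1 and A5, so that in EPZ4777 a difference of A1 from A4 and D11 also holds a difference of time, and in both agents A1 differs from them by its hairpin label too. The labels do not say what a code stands for, nor whether codes are separate cultures, animals or clones. A1 is 1 array per agent, and 1 code against 3 cannot go below p = 0.25 in an exact permutation of the codes.

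The A1 array in DMSO stood apart from the other 7 arrays by genes of fat. Ucp1, the uncoupling protein of brown fat, was at 11.52 on that array and between 3.23 and 4.21 on the other 7. Adipoq, the fat hormone adiponectin, was at 10.63 against 3.48 to 4.06, and Cidea, a lipid droplet protein of brown fat, was at 11.51 against 4.0 to 4.89. Of 26 measured genes of a brown and white adipocyte list that was drawn up after these values were seen, 21 were higher in A1 in DMSO, against 1.48% of all genes, and 0 were higher in EPZ4777. The summed intensity of that list was 35939 on the A1 array in DMSO and between 2261 and 5264 on the other 7, with the lowest value on the A1 array in EPZ4777.

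Some genes of muscle and connective tissue were also high on the A1 array in DMSO. Of 16 skeletal muscle genes, a list also drawn up after the values were seen, 7 were higher in DMSO (1.48% of all genes). In EPZ4777 0 were higher (0.478%). Myh4, a fast myosin, was among the 7 (6.73 against 3.22 to 3.62). Other muscle genes were not shifted in DMSO, such as the myosins Myh1 (-0.37), Myh2 (0.031) and Myh7 (-0.037) and desmin, Des (0.094). Of 12 fibroblast and stroma genes 6 were higher in DMSO and 1, Fn1, was lower, against 1.48% and 0.945% of all genes, and 0 were shifted in EPZ4777. Col3a1, a fibrillar collagen chain, was at 6.92 against 2.84 to 3.13, while Col1a1, the defining collagen of fibroblasts, was at 4.2 against 3.91 to 4.47. The summed intensity of the fibroblast list was 1165 on that array and 752.9 to 1404.5 on the other DMSO arrays. In EPZ4777 it was 518 in A1 and 445 to 843 in the other codes. In DMSO the sums of A4, D11 and A5 came mostly from Fn1, at 8.70, 10.08 and 9.20 there and at 6.99 in A1. The sums therefore do not show the level of the list's higher genes. No gene of any other array lay 3 log2 or more above all the other arrays, and 28 genes of the A1 array in DMSO did. The part of these tissues' RNA in the DMSO differences of A1 was not tested. By the rule, a gene counted in both agents is also shifted on the A1 array in EPZ4777, on which Ucp1, Adipoq and Cidea were at 3.57, 3.66 and 4.28. This does not show how much of such a gene's DMSO difference came from these tissues.

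**Figure D1:**
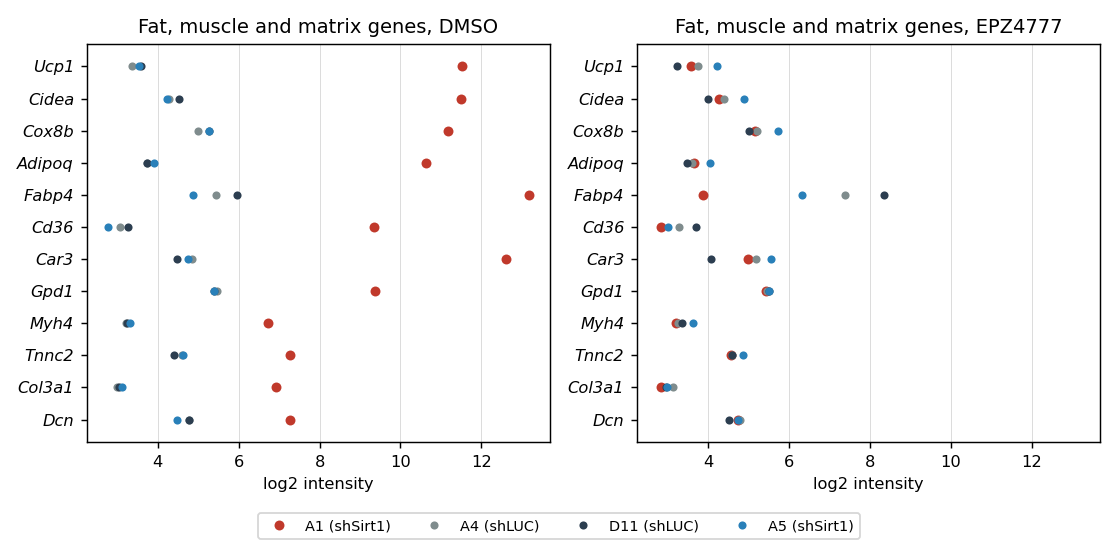
Log2 intensity of genes of fat, muscle and matrix on each array, DMSO on the left and EPZ4777 on the right, 1 point per array and gene, with the codes in colours. The A1 point stands far to the right for every gene shown in DMSO (Ucp1 at 11.52) and among or below the other codes in EPZ4777 (Ucp1 at 3.57). All genes shown were higher in A1 in DMSO, and genes of these lists that were not, such as Des and Lep, are left out.

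The markers of the labelled cells were present on the A1 arrays. Mpo, the peroxidase of myeloid precursors, was at 13.43 in DMSO and 13.56 in EPZ4777, above all other arrays of its agent. Ptprc, the leukocyte antigen CD45, was at 11.63 and 11.82, and Kit, the SCF receptor, at 8.79 and 9.71. Itgam (CD11b) was lower in A1 in DMSO, and Spi1, the myeloid transcription factor PU.1, lay below all other codes in both agents without reaching 1 log2, with -0.86 and -0.70. Cd34 was at 3.39 or lower on all 8 arrays. Y-linked Eif2s3y was between 10.07 and 10.31 and Xist between 4.43 and 4.97 over all 8 arrays.

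A1 lay further from each other code in DMSO than these lay from each other. The A1 array differed by at least 1 log2 in 453 genes from A4, in 562 from D11 and in 471 from A5. The other 3 pairs differed in 34 genes (A4 and D11), 95 (A4 and A5) and 168 (D11 and A5). In EPZ4777 this was not so: A1 differed in 387, 709 and 422 genes from A4, D11 and A5, and the other pairs in 288 (A4 and D11), 602 (A4 and A5) and 493 (D11 and A5). Over all genes the A1 differences in DMSO and in EPZ4777, which share no array, correlated at r = 0.38 across genes, which are not independent replicates. Of the 270 genes higher in DMSO 16.7% were also higher in EPZ4777, which is 51.7% of the 87 higher there, and of the 172 lower in DMSO 47.1% were also lower in EPZ4777, which is 43.3% of the 187 lower there.

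**Figure D2:**
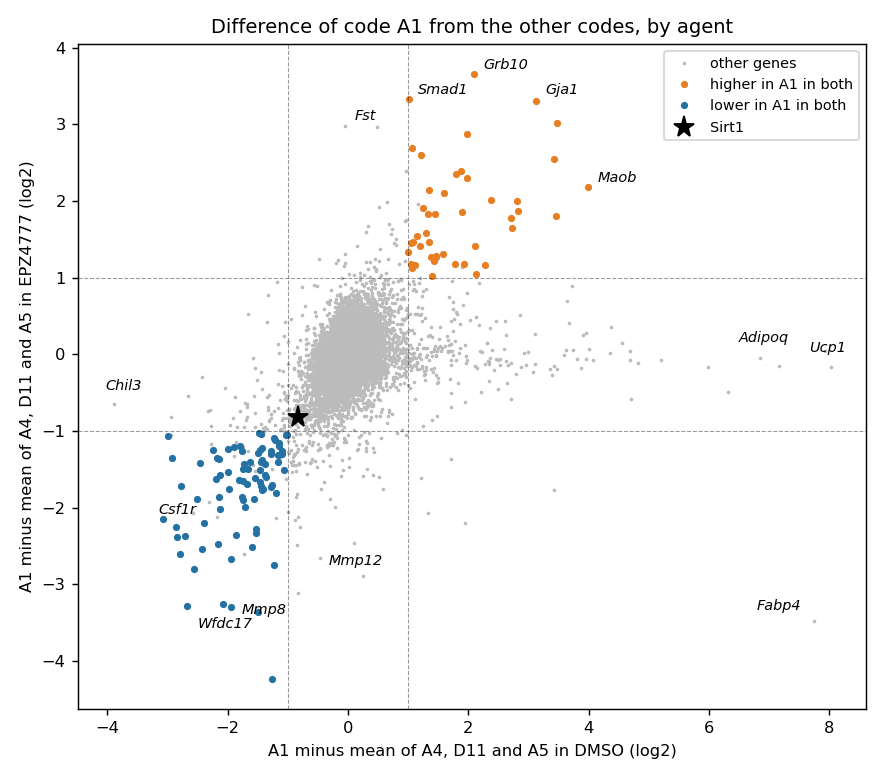
Difference of A1 from the mean of A4, D11 and A5, in log2, in DMSO (horizontal axis) and in EPZ4777 (vertical axis), 1 point per gene, with dashed lines at 1 and -1. Orange marks the 45 genes higher and blue the 81 genes lower in both agents, the star is Sirt1, and the fat genes lie far right at about no difference in EPZ4777, except Fabp4.

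Sirt1, measured by 1 probe set, chose the code. Its log2 intensity in DMSO was 8.70 in A1, 9.46 in A4, 9.58 in D11 and 9.54 in A5, and in EPZ4777 it was 8.85 in A1, 9.44 in A4, 9.83 in D11 and 9.73 in A5. A1 therefore held 56.2% of the mean of the others in DMSO and 56.7% in EPZ4777. Both A1 values were below all 6 others, but the difference of -0.83 in DMSO and -0.82 in EPZ4777 was under the limit of 1 log2, so Sirt1 itself is not counted among the 81. There were 167 genes, Sirt1 included, that lay at least as far below the other codes in both agents.

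The other 6 sirtuins were not shifted in either agent. Sirt7, a nucleolar sirtuin, lay below the other codes in both agents, with -0.22 in DMSO and -0.58 in EPZ4777. Sirt2, a cytoplasmic one, differed by -0.12 and -0.42, and in DMSO A1 at 8.49 lay above A5 at 8.46. Sirt3, of mitochondria, lay at 0.16 and 0.10, and Sirt6, of chromatin, at -0.22 and -0.08. Of 21 genes of NAD metabolism 1 was lower in both agents (0.445% of all genes) and 0 were higher. The lower gene was Bst1, an enzyme of the cell surface that uses NAD. Of 24 measured p53 targets, 21 FOXO targets, 20 genes of NF-kB and inflammation and 18 genes of H3K9 methylation, 0 were shifted in both agents. With 0.693% of all genes shifted, lists of this size would hold about none, so these counts say nothing of the lists. Of the FOXO targets 18 of 21 lay above the mean of the other codes in DMSO (median 0.38) and 16 of 21 below it in EPZ4777 (median -0.17). The endothelial list had a like pair of medians, 0.38 and -0.063. The part of fat, muscle and matrix RNA in the DMSO values of the FOXO targets was not tested.

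The genes lower in A1 in both agents included genes of monocytes and macrophages. Of 25 measured monocyte and macrophage genes 6 were lower in both agents, 24.0% of the list against 0.445% of all genes, and 0 were higher. The median difference of the list was -1.12 in DMSO and -1.42 in EPZ4777, against -0.024 and -0.0034 over all genes. Against A5 alone it was -0.60 in DMSO and -0.23 in EPZ4777. The summed intensity of the list was 17945 in A1 in DMSO, above A5 with 17292 and below A4 with 21726 and D11 with 24357. In EPZ4777 it was 11790 in A1, again above A5 with 8145 and below 24911 in A4 and 26137 in D11, so that A1 was not the lowest code in the list's sum. In bulk RNA, fewer cells of a type and less RNA per cell cannot be told apart.

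Csf1r, the receptor for the growth factor of macrophages, was at 7.62 in A1 in DMSO against 9.79 in A4, 10.32 in D11 and 9.13 in A5. In EPZ4777 it was at 7.49 against 10.08, 10.29 and 8.15 in the same order. The differences were -2.13 ± 0.59 and -2.02 ± 1.18 (SD over the 3 other codes, as in all values with ± that follow), and all 3 probe sets of Csf1r lay lower in both agents. Cd68, a lysosomal protein of macrophages, was at 6.58 and 6.60 in A1, and at 7.83 to 8.61 in the other codes in DMSO and 7.46 to 9.36 in EPZ4777. By the rule A1 lies outside the other codes for every gene counted. Against A5 alone the smaller difference was -0.66 for Csf1r and -0.86 for Cd68, under 1 log2.

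Msr1, a scavenger receptor, and Mrc1, the mannose receptor, were lower by more in EPZ4777 than in DMSO. Msr1 differed by -1.53 ± 0.24 in DMSO and -2.33 ± 1.80 in EPZ4777. Mrc1 was at 3.53 in A1 in DMSO, near the lower quartile of all probe sets (3.75 to 3.84), against 4.35 to 5.55 in the others. In EPZ4777 Mrc1 stayed at 4.04 in A1 and was at 8.62 in A4, 9.80 in D11 and 6.39 in A5. Fcgr1, the high-affinity IgG receptor, differed by -2.46 ± 0.45 and -1.42 ± 0.59, and Ms4a6c by -2.0 ± 0.42 and -1.54 ± 0.44. Of the 2 probe sets of Ms4a6c 1 lay lower in both agents. With the mean of all probe sets the smaller difference was -0.87 for Ms4a6c and -0.85 for Msr1, so that 2 of the 6 genes were no longer counted. Against A5 alone that of Msr1 was -0.25.

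The lower genes with the largest differences held further surface proteins of myeloid cells and a secreted protein. Wfdc17, a small secreted protein of activated macrophages, was at 8.92 in A1 in DMSO against 11.58 in A4, 12.36 in D11 and 10.86 in A5. In EPZ4777 it was at 7.58 in A1 and 7.96 in A5 against 12.23 in A4 and 12.41 in D11, so that there A5 lay beside A1 and not beside the shLUC codes, and the smaller difference against A5 alone was -0.38. The C-type lectin receptors Clec4a3 (-2.79 ± 0.44 and -2.60 ± 1.09), Clec4a2 (-2.85 ± 0.32 and -2.26 ± 0.81) and Clec4n, which is Dectin-2 (-3.07 ± 0.47 and -2.14 ± 1.64), were lower in DMSO and EPZ4777. Ms4a6d (-2.84 ± 0.54 and -2.39 ± 0.99) and Ms4a6b (-2.52 ± 0.47 and -1.89 ± 0.57) belong to a family of membrane proteins with several members in macrophages.

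Further lower genes were Mpeg1, Cybb, Fpr2 and chemokines. Mpeg1, the pore-forming perforin-2 of macrophages, was at 8.27 in A1 against 10.0 to 11.11 in DMSO and at 8.81 against 10.04 to 11.73 in EPZ4777. Cybb, the catalytic subunit of the phagocyte NADPH oxidase, differed by -1.95 ± 0.59 and -2.67 ± 0.73. Fpr2, a receptor for formylated peptides, differed by -2.07 ± 0.53 and -3.26 ± 1.11. Of 21 measured chemokines and chemokine receptors 3 were lower in both agents (0.445% of all genes) and 0 higher: Ccl2, which attracts monocytes (-1.86 ± 0.84 and -2.36 ± 2.05), Ccl6 (-1.73 ± 0.13 and -1.44 ± 1.15) and Ccr1 (-1.47 ± 0.34 and -1.03 ± 0.31). Without D11 the smaller difference of Ccr1 was -0.85, which ends its count. The large SD of Ccl2 in EPZ4777 goes with A5, which was at 5.18 beside A1 at 5.09 and below A4 at 8.0 and D11 at 9.17.

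For Cmc1, Car4 and Bst1, A5 lay with the shLUC codes in EPZ4777. Cmc1, an assembly factor of cytochrome c oxidase, was at 7.79 and 7.35 in A1 and between 9.91 and 10.64 on the other 6 arrays, with differences of -2.55 ± 0.26 and -2.80 ± 0.25. Car4, a carbonic anhydrase of the cell surface, was at 5.92 and 5.96 in A1 and between 7.59 and 8.85 on the other 6. Bst1 was at 5.02 in A1 against 7.39 to 8.30 in DMSO and at 7.16 against 8.90 to 10.20 in EPZ4777. Il1r2, a decoy receptor for interleukin 1, was lower too (-2.24 ± 0.37 and -1.26 ± 0.50). It was with Csf1r 1 of 2 lower genes among 24 receptors for growth factors and cytokines (0.445% of all genes), of which 0 were higher. Ctss, the lysosomal protease cathepsin S, differed by -1.53 ± 0.52 and -2.28 ± 1.84. It was the only gene of 18 on the autophagy and lysosome list that was shifted in both agents, against 0.693% of all genes. In EPZ4777 Ctss was at 9.02 in A1 and 9.17 in A5 against 12.38 in A4 and 12.34 in D11.

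**Figure D3:**
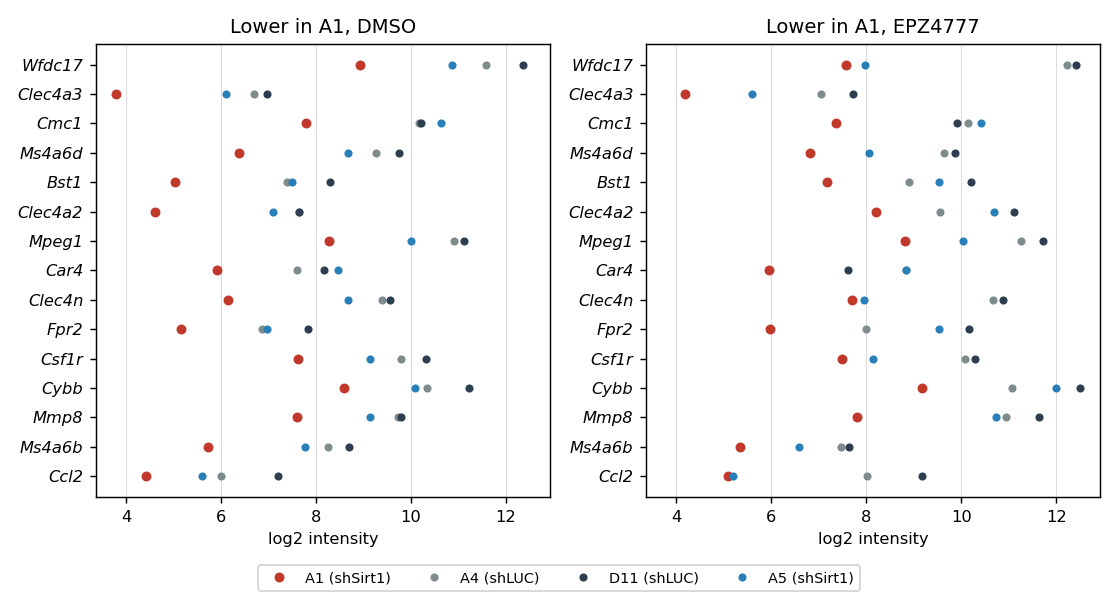
Log2 intensity of the 15 named genes furthest below the other codes in A1, in DMSO (left) and EPZ4777 (right), 1 point per array. The red A1 point is the leftmost in every row, and in EPZ4777 the light blue A5 point lies beside it for Wfdc17, Clec4n and Ccl2.

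Genes of neutrophil maturation were lower in A1 too. Of 18 measured genes of neutrophil maturation 12 were lower in DMSO, against 0.945% of all genes, and 5 in EPZ4777, against 1.03%. In both agents 3 were lower, against 0.445%. The list's median difference was -1.46 in DMSO and -0.82 in EPZ4777. Against A4 alone the median in EPZ4777 was 0.026, and against D11 and A5 it was -1.28 and -1.17. The summed intensity of the list was 14000 in A1 in DMSO against 36720 to 47174 in the other codes, and 84580 in EPZ4777 against 94578 in A4 and more in D11 and A5. Mmp8, the collagenase of neutrophil granules, was at 7.60 in A1 against 9.14 to 9.80 in DMSO and at 7.81 against 10.72 to 11.63 in EPZ4777 (-1.95 ± 0.36 and -3.29 ± 0.48). Lyz2, lysozyme, differed by -1.99 ± 0.24 and -1.24 ± 0.24, and Cd177, a neutrophil surface protein, by -1.22 ± 0.55 and -1.12 ± 1.05. Without D11 the smaller difference of Cd177 was -0.60, so that its count rests on that code.

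Other neutrophil genes were shifted in DMSO and not in EPZ4777, and the change of the difference was not tested. Chil3, a chitinase-like protein, was at 7.40 in A1 in DMSO against 10.82 to 11.56, and at 13.42 in EPZ4777 against 13.89 to 14.17. Camp, the antimicrobial cathelicidin, was at 7.37 against 9.67 to 10.88 in DMSO and at 12.29 in EPZ4777, within the range of 11.76 to 14.09 of the other codes. S100a9, a calcium-binding protein of neutrophils, was at 10.74 against 12.93 to 13.46 in DMSO and at 14.19 against 14.32 to 14.58 in EPZ4777. The 14.58, in D11, is at the highest deposited intensity, 24500 before log2. Whether the signal there was near its upper limit was not tested. Of 9 primary granule genes, which mark the precursor stage, 0 were shifted in both agents, which at 0.693% of all genes says nothing of the list. Their median difference was 0.0015 in DMSO and -0.070 in EPZ4777.

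Promoter windows are printed for Wfdc17 and Mmp8, whose RefSeq windows hold GAGGAAG, letters of the core read by PU.1, on either strand. Both are among the 15 lower genes named for their size, and whether others of the 15 hold the letters is not given. The windows are shown because Spi1 lay below the other codes in A1. The windows run from 250 bases before to 50 after the gene's start, in GRCm38.p6, and capitals mark the match, which in both is on the opposite strand and reads CTTCCTC. The Wfdc17 window is chr11:83703806-83704105 and the Mmp8 window is chr9:7558179-7558478, both on the plus strand.
Wfdc17: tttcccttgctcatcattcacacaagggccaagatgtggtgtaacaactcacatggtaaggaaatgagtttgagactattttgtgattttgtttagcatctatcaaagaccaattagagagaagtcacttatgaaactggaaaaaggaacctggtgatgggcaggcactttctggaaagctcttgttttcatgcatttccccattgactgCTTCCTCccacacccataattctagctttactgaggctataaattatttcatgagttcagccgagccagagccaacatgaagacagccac
Mmp8: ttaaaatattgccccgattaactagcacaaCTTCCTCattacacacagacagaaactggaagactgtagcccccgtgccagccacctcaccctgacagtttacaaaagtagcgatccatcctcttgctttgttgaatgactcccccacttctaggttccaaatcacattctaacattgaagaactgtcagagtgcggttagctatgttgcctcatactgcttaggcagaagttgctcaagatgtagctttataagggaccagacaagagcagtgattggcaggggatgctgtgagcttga
These letters were in 22.8% of the 79 windows that matched 61 of the 81 lower genes and in 18.2% of the 55 windows that matched 36 of the 45 higher genes. Over all 32851 windows of the table the share was 13.6%. A match describes the letters and is not a shown site of binding.

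Of the 45 genes higher in A1, Gja1 had the largest value when each gene was taken by the smaller of its differences in DMSO and EPZ4777. Gja1, the gap junction protein connexin 43, was at 8.13 in A1 in DMSO against 4.27 in A4, 6.13 in D11 and 4.62 in A5, and at 8.38 in EPZ4777 against 4.33, 4.67 and 6.24. The differences were 3.12 ± 0.99 and 3.30 ± 1.02, and 5 of its 6 probe sets lay higher in both agents.

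Plod2, Fkbp9 and Rcn1 encode proteins of the endoplasmic reticulum, and were set side by side after their values were seen. Plod2, a lysyl hydroxylase of collagen, was at 7.61 and 6.8 in A1 and at 4.72 or lower on the other 6 arrays (3.48 ± 0.59 and 3.02 ± 0.15). Fkbp9, a prolyl isomerase of the endoplasmic reticulum, was at 8.17 against 2.95 to 6.33 in DMSO and at 7.47 against 4.38 to 5.79 in EPZ4777. Rcn1, a calcium-binding protein of the same compartment, was at 9.33 against 7.29 to 7.86 and at 8.31 against 5.34 to 6.86. For Fkbp9 in DMSO the other codes were themselves far apart.

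Further higher genes encode proteins of several kinds. Grb10, an imprinted adaptor that binds the insulin receptor, was at 6.30 against 3.75 to 4.5 in DMSO and at 7.69 against 3.91 to 4.21 in EPZ4777 (2.10 ± 0.40 and 3.65 ± 0.16). Pcdh7, a protocadherin (2.37 ± 0.61 and 2.01 ± 0.81), Vldlr, a lipoprotein receptor (2.81 ± 0.21 and 2.0 ± 1.02), and P2rx3, an ATP-gated channel (1.88 ± 0.49 and 2.39 ± 1.07), were higher too. Nrip1, a corepressor of nuclear receptors, differed by 1.97 ± 0.34 and 2.87 ± 0.74. Golm2 (1.97 ± 0.60 and 2.30 ± 0.40), Map1b, a microtubule-binding protein (1.90 ± 0.08 and 1.86 ± 0.45), Ctla2b (2.83 ± 0.57 and 1.87 ± 0.82) and Armcx4 (2.71 ± 0.32 and 1.78 ± 0.20) were higher too. With the mean of all probe sets the smaller difference was 0.81 for Grb10, 0.72 for Nrip1 and 0.80 for Map1b, which ends their count. With values under 5 raised to 5 it was 0.036 for Maob, and Armcx4 was at the floor in EPZ4777.

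Some of the higher genes were higher by more in DMSO, where the fat genes were. Maob, the monoamine oxidase B, was at 6.98 in A1 in DMSO and 5.04 in EPZ4777, and between 2.64 and 3.06 on the other 6 arrays. Rbp4, the retinol-binding protein of plasma, which fat also makes, was at 7.59 and 6.15 in A1 and between 4.0 and 4.69 on the other 6. In A1 the EPZ4777 value minus the DMSO value was -1.95 for Maob and -1.44 for Rbp4, and the part of fat RNA in their DMSO values was not tested.

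Of the gene lists, 2 held a gene that was higher in A1 in both agents, against 0.247% of all genes. Each held only 1, which says little of the list. Ccnd2, the G1 cyclin D2, was at 11.42 against 9.64 to 10.16 in DMSO and at 10.98 against 8.65 to 9.64 in EPZ4777, with all 7 probe sets higher, and it was the only 1 of 19 CDK inhibitors and G1 cyclins. Ighm, the heavy chain of IgM, was the only 1 of 13 B cell genes (1.04 ± 0.28 and 1.45 ± 1.09), and 3 of its 11 probe sets lay higher in both agents. With the mean of all probe sets the smaller difference of Ighm was 0.081, and it was 0.93 without D11 and 0.92 without A5. The other B cell genes were not shifted.

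**Figure D4:**
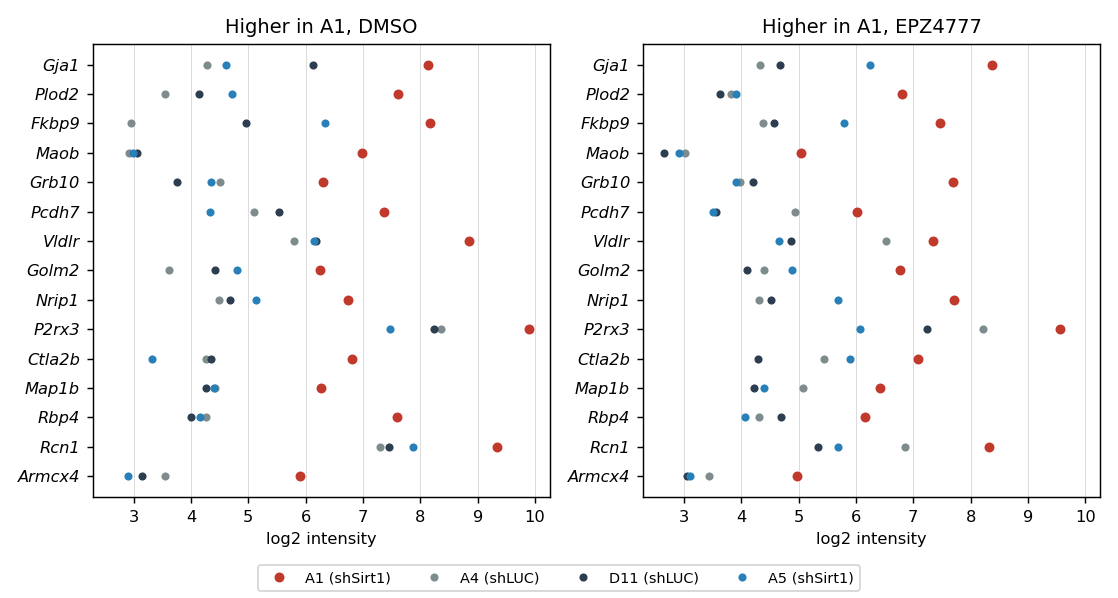
Log2 intensity of the 15 named genes furthest above the other codes in A1, in DMSO (left) and EPZ4777 (right), 1 point per array. The red A1 point is the rightmost in every row, and for Maob and Armcx4 the other codes lie below 4 in both agents.

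The leukemia's own program was followed through MLL-AF9 targets, among them Hoxa9 and Meis1, and through Dot1l. Of 17 measured MLL-AF9 targets 0 were higher or lower in both agents, which at 0.693% of all genes says nothing of the list. The list's median difference was -0.056 in DMSO and -0.10 in EPZ4777. Hoxa9 was at 12.35 in A1 in DMSO against 12.62 to 12.83, and at 12.17 against 12.30 to 12.63 in EPZ4777. Meis1 was at 7.64 in A1 in DMSO, within the range of 6.91 to 7.93 of the others, and at 5.26 in EPZ4777 against 4.01, 3.62 and 3.93 in A4, D11 and A5, a difference of 1.41 ± 0.21. Of the 3 probe sets of Meis1 1 lay higher in both agents. Dot1l differed by 0.04 in DMSO and -0.02 in EPZ4777.

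The lists of cell growth and metabolism held no gene shifted in both agents, which at 0.693% of all genes says nothing of them. This was so for 22 genes of DNA replication, 19 of mitosis, 24 of MYC and ribosome biogenesis, 22 of mitochondrial respiration, 19 of glycolysis and hypoxia and 17 of cholesterol and fatty acid synthesis. In EPZ4777 A1 lay above the mean of the other codes for 22 of 22 genes of DNA replication (median 0.17) and 23 of 24 of MYC and ribosome biogenesis (median 0.34), and in DMSO for 13 and 5 (medians 0.029 and -0.047). Against A5 alone the EPZ4777 medians of these lists were -0.029 and 0.18. Against A4 they were 0.21 and 0.30, and against D11 0.24 and 0.55. Over all genes the median difference in EPZ4777 was -0.0034. The median of the mitochondrial list was 0.20 in DMSO and 0.16 in EPZ4777, and that of the stem and progenitor list, with 0 of 18 genes shifted in both, 0.22 and 0.16. Of all 37 lists 29 held no gene shifted in both agents, and the lists together held 17 of the 126 shifted genes.

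**Figure D5:**
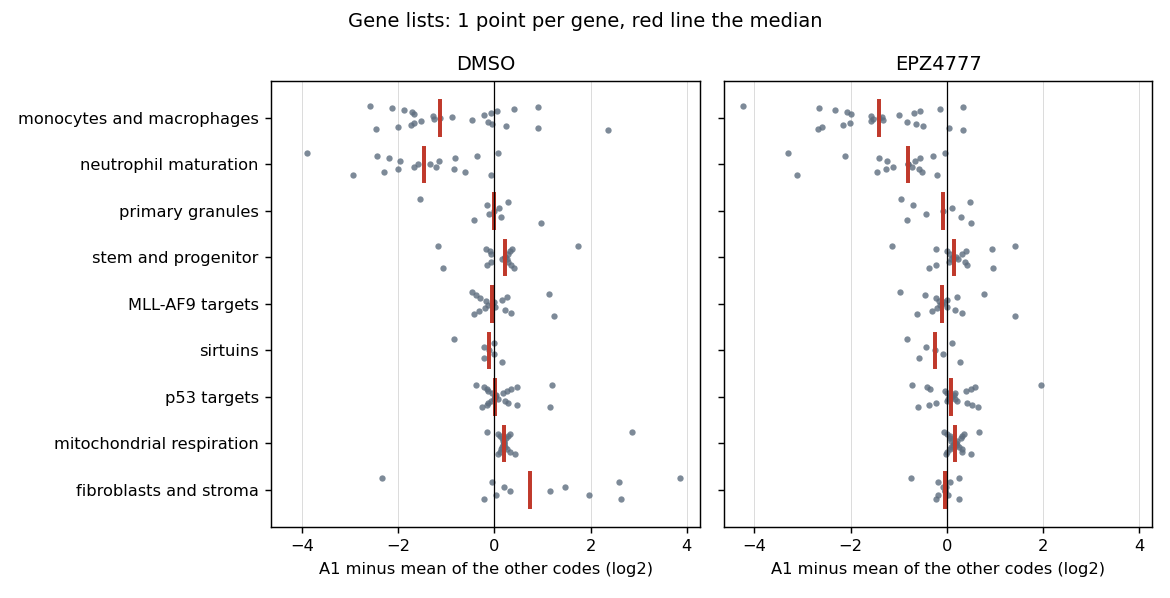
Difference of A1 from the mean of the other codes, in log2, for each measured gene of 9 lists, in DMSO (left) and EPZ4777 (right), with the list's median as a red line. The medians of the monocyte and macrophage list (-1.12 and -1.42) and of the neutrophil list (-1.46 and -0.82) lie left of 0, and that of the fibroblast list is right of 0 in DMSO alone (0.74 and -0.033).

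Outside the 126 genes, the largest differences were those of fat in DMSO. Ucp1, Car3, Fabp4, Cidea, Adipoq and Cd36 led the 225 genes higher in DMSO and not higher in EPZ4777 (1.24%). Chil3, Stfa2l1, Camp, Stfa3, Gpnmb and S100a9 led the 91 lower in DMSO and not lower in EPZ4777 (0.5%), of which Chil3, Camp and S100a9 are neutrophil genes and Stfa2l1 and Stfa3 are stefins, inhibitors of cysteine proteases. Gpnmb, a glycoprotein of macrophages, differed by -2.58 in DMSO and -2.07 in EPZ4777, where A5 at 9.06 lay below A1 at 9.14.

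In EPZ4777, 42 genes were higher that were not higher in DMSO (0.231%) and 106 were lower that were not lower in DMSO (0.583%). Fst, the activin antagonist follistatin, was at 8.14 in A1 against 5.10 to 5.24, and at 4.53 in DMSO, within the other codes. Pdzrn3 was at 5.71 against 2.64 to 2.80, and Mamdc2, Rnase2a, Tceal8 and Slc7a3 were higher by 1.76 to 2.39. Of the lower genes, Mmp9, the gelatinase of neutrophils, was at 5.71 in A1 and 6.22 in A4 against 10.21 in D11 and 10.05 in A5. C1qb, a chain of complement C1q, and Mmp12, the macrophage elastase, were at 3.60 and 3.95 in A1, and A5 was beside it at 3.83 and 4.10, while A4 and D11 lay between 7.02 and 8.71. Fabp4, a fatty acid binding protein of fat and macrophages, was 1 of 5 genes (0.0275%) shifted in opposite directions, with 7.75 in DMSO and -3.48 in EPZ4777. The others, Bcl6, Ces1d, Ifi27l2a and Plbd1, were also higher in DMSO and lower in EPZ4777, and all 5 are among both the 225 and the 106. Lgmn, a lysosomal protease, and Spint1, a protease inhibitor, differed by -2.48 and -2.25 in EPZ4777.

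A5, the other code with the shSirt1 label, lay lower than the shLUC codes in many of the genes lower in A1. Of the 81 genes, A5 was at least 1 log2 below the mean of A4 and D11, and below both, for 32 in EPZ4777 (1.97% of all genes) and for 7 in DMSO (0.451%). The median of A5 minus the shLUC codes over the 81 genes was -0.62 in EPZ4777 and -0.48 in DMSO, and that of A1 was -1.89 and -1.79. These values share the shLUC arrays with the choice of the genes. Over the 45 higher genes, the median of A5 minus the shLUC codes was 0.16 in DMSO and 0.089 in EPZ4777, with 5 (0.121% of all genes) and 9 (0.495%) at least 1 log2 above both, and 1 in DMSO and 5 in EPZ4777 at least 1 log2 below both. Sirt1 in A5 lay between A4 and D11 in both agents, and the shared label and the shared time in EPZ4777 cannot be told apart.

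Part of the lower genes were higher in EPZ4777 than in DMSO in A1 and in the other codes. Of the 81 lower genes 30 were higher by at least 1 log2 in A1, against 1.62% of all genes, and 19 were so in each of A4, D11 and A5, against 0.857%. Of the 45 higher genes 7 were lower by at least 1 log2 in EPZ4777 in A1, against 1.85% of all genes, and 1 was so in each of the other codes, against 0.258%. In the other direction 5 of the 45 were higher in EPZ4777 in A1 and 3 in each of the other codes. These changes use the arrays that chose the genes. Clec4a2 was higher in EPZ4777 than in DMSO by 3.59 in A1, and by 1.91 in A4, 3.47 in D11 and 3.61 in A5. Cd177 was higher by 4.26 in A1 and by 3.34, 4.57 and 4.57 in the same order, from a lower start in DMSO. Csf1r differed by -0.13 in A1 between the agents and by 0.29, -0.03 and -0.99 in A4, D11 and A5.

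The share of the 126 genes differed between chromosomes, which was not tested. Chromosome 19 held 5 higher and 6 lower of 611 genes and chromosome 6 held 4 and 9 of 996. Chromosome 14 held 0 of 648, against 0.693% of all genes. The median difference of the genes of 1 chromosome lay between -0.048 and -0.0032 in DMSO and between -0.028 and 0.015 in EPZ4777 over 20 chromosomes, with RefSeq's GRCm38.p6 as the source of the order of genes. Among the lower genes, 7 pairs lay at most 3 places apart among the measured genes of that order, and among the higher genes 1 pair. Of these Clec4a3, Clec4a2 and Clec4n lie near each other, as do Ms4a6c, Ms4a6b and Ms4a6d, and Pilra and Pilrb1, Ccl6 and Wfdc17, and Gpr137b and its pseudogene are the others. Such neighbours are related copies in part, and a probe set can bind more than 1 of them, so they may not be separate measurements.

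Many of the genes were measured by more than 1 probe set. Of the 42 lower genes with 2 or more probe sets, all probe sets lay lower in both agents for 36, and of the 35 such higher genes all lay higher for 21. These counts include the probe set by which the gene was chosen. In 53 of the 81 lower genes both A1 arrays were below all 6 other arrays whatever the agent, and in 38 of the 45 higher genes both were above all 6. Over all 18193 genes A1 lay so, on either side, in 1727. The rule that chose the genes favours such a separation. The limit of 1 log2 divides genes that differ little. Just inside it were Pdlim1 (smaller difference 1.0009) and Smad1 (1.01) among the higher genes and Vamp5 (-1.01) and Samd5 (-1.02) among the lower. Just outside were Sgce and Tdrkh on the higher and Nrp2 and Stard3nl on the lower side. Smad1, a transducer of BMP signals, was at 4.43 in A1 in DMSO against 3.35 to 3.47, and at 7.61 in A1 and 6.73 in A5 against 3.01 and 3.09 in A4 and D11 in EPZ4777.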

How the data were processed

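Total RNA of 8 samples was hybridised to 1 array each. The deposited values are linear intensities. The submitters' processing notes name RMA, with no version, a method that subtracts background, equalises arrays and condenses probes into probe sets. The sources used here do not give the chip definition file or say if all arrays went through RMA at once. The log2 of each intensity was taken with no pseudocount. Of 45101 probe sets 64 controls were left out, 34945 had 1 gene symbol in the platform annotation, 932 had several and 9160 were not listed; symbols needed 0 updates. Each gene took its probe set with the highest mean, giving 18193 genes (9010 had several probe sets), and no gene was dropped for dimness. Arrays have no read depth, and the number of arrays limits the precision.

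A1 was set against the mean of A4, D11 and A5 within each agent (Python 3.11.15, numpy 2.4.6, pandas 2.3.3), and the rule was tested on simulated data. No test was run because the code and the genes were chosen from this contrast. The code, the 37 gene lists (645 genes, 594 measured) and the rules were chosen with earlier results of these data known. Named genes are the 15 with the largest smaller-of-the-agents difference each way, up to 4 such members per list, the 6 largest shifted in 1 agent per direction, the 2 nearest to the limit on each side, and sirtuins, Dot1l, Meis1, Hoxa9, sex and fibroblast genes; symbols ending in Rik and the like were counted, not named. Other names, and the adipocyte and muscle lists, were chosen after their values were seen. Alternatives were other summaries per gene, normalizations, treatment of dim genes, limits and sets of codes.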

Additional observations from a re-analysis of the deposited data

Results flagged for a closer look

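Of the lists and named genes, 8 lay on opposite sides of all 3 other codes in DMSO and in EPZ4777, which was not tested. Fabp4 differed by 7.75 in DMSO and -3.48 in EPZ4777, Cd36 by 6.31 and -0.49, and Col3a1 by 3.87 and -0.18. The list medians were 0.38 in DMSO and -0.17 in EPZ4777 for FOXO targets, 0.38 and -0.063 for endothelial genes, -0.047 and 0.34 for MYC and ribosome biogenesis, -0.088 and 0.055 for eosinophil genes, and -0.060 and 0.10 for B cell genes.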

How the results depend on the processing

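No paired analysis was possible because no test was run. With 45 genes higher and 81 lower in A1 as reported, averaging all probe sets of each gene gave 26 higher, every probe set by itself 84 higher, and genes above the median level only 20 higher. A limit of 0.5 log2 gave 152 higher and 301 lower, 1.5 log2 gave 17 and 33, and 2 log2 gave 6 and 12, which follows from the limit itself. Against A5 alone 90 were higher, 30 of them among the 45, and 76 were lower, 42 of them among the 81. With each other code left out in turn, 44 to 57 were higher and 67 to 131 lower, and the 131 came without A5, 78 of them among the 81. The DMSO arrays alone gave 270 higher and 172 lower and the EPZ4777 arrays alone 87 and 187, alternatives chosen after the data were seen. All other counts were within 1.5 times. The Sirt1 difference kept its direction under every alternative run on it, between -0.87 and -0.81 in DMSO and -0.93 and -0.74 in EPZ4777. Of 405 values of 45 named genes 0 turned, 28 moved by more than 1 SD, and 2 (Armcx4 and Smad1) came to 0 when values under 5 were raised to 5, since A1 and the other codes then lay at that floor in 1 agent. Sirt1 chose the code and the 45 genes were chosen on the same arrays, so their directions were likely to hold. A smaller difference was set to 0 where the agents differed in sign, so a turn in 1 agent could not be counted. The cause of the other changes was not tested.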
